A study of Homo sapiens with 4 samples.

Results

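Glypicans and syndecans are the membrane-bound carriers of heparan sulfate, and their mRNA was followed here in cells treated with an siRNA against KLF11. The genes were taken by name, GPC1 to GPC6 for the glypicans and SDC1 to SDC4 for the syndecans, which gave 10 genes of 57905 in the table, all of them present as rows. Polyadenylated RNA was sequenced in 4 libraries whose labels name MG63, a human osteosarcoma line, grown in medium with fetal bovine serum. The KLF11 siRNA group held 2 libraries and the control siRNA group 2 libraries, all harvested 48 hours after transfection. The labels do not say whether the libraries came from separate cultures, and the p-values reflect the spread between these libraries alone, which may be technical. The labels do not give the siRNA sequences or the number of siRNAs per target.

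Glypicans are tied to the outer face of the cell membrane by a glycosylphosphatidylinositol anchor, whereas syndecans span the membrane and end in a short cytoplasmic tail that binds PDZ proteins. Both carry long sulfated sugar chains that hold growth factors and morphogens, among them FGFs, Wnts, BMPs and Hedgehogs, close to their receptors. In bone and its tumours these chains are known to bear on matrix adhesion and on growth factor signalling.

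The label MG63 was set against marker genes before the comparison. FPKM, the unit of the table, is a fragment count divided by gene length and by library size. Among 14 genes of osteoblast-like mesenchymal cells, RUNX2, PRRX1, LUM and DCN were under 1 FPKM in every library, PRRX1 was listed at 0 in both control siRNA libraries and COL3A1 in 1 of them, and the list summed to 1074 and 1095 FPKM in KLF11 siRNA libraries and 969 and 921 FPKM in control siRNA libraries, mostly SPARC. Calls of markers are from the fit described below, in which 13.5% of all tested genes were called higher and 21.7% lower. All 9 markers of pluripotent cells were present, 7 of them called higher and 1, LIN28A, lower. Their sums were 3010 and 2501 FPKM in KLF11 siRNA libraries and 1521 and 1533 FPKM in control siRNA libraries. POU5F1 was the gene that moved most in these sums, at 1364 and 1068 FPKM in KLF11 siRNA libraries and 186 and 177 FPKM in control siRNA libraries. All 7 early endoderm markers were present as well, 5 called lower and 1, EOMES, higher, with sums of 1282 and 2989 FPKM in KLF11 siRNA libraries and 5045 and 5014 FPKM in control siRNA libraries. Most of that sum was CER1, which did not pass the test (adjusted p = 0.0543), at 958 and 2574 FPKM in KLF11 siRNA libraries and 4430 and 4406 FPKM in control siRNA libraries. The 6 epithelial markers, all called lower, summed to 737 and 1008 FPKM in KLF11 siRNA libraries and 2124 and 1951 FPKM in control siRNA libraries. The mesenchymal list was mixed, since COL1A2 was at 136 and 115 FPKM in KLF11 siRNA libraries and 133 and 126 FPKM in control siRNA libraries. ALPL was at 106 and 79 FPKM in KLF11 siRNA libraries and 101 and 89 FPKM in control siRNA libraries. Of the 8 tested genes of that list 2, TWIST1 and THY1, were called higher and 2, COL1A1 and S100A4, lower. Genes of pluripotent cells and early endoderm this high, with RUNX2 and PRRX1 this low, went against the MG63 label. The values below are those of libraries labelled MG63 and not of a verified osteosarcoma line. COL1A2, ALPL, TWIST1, THY1, COL1A1, S100A4, LIN28A, EOMES, POU5F1 and CER1 were named after their values were seen. The sums of the pluripotent, endoderm and epithelial lists moved with the groups, and their part in the results that follow was not tested. In bulk RNA, fewer cells of a type and less RNA per cell cannot be told apart.

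KLF11, the target, was at 5.49 and 6.74 FPKM in KLF11 siRNA libraries and 12.3 and 12.4 FPKM in control siRNA libraries. It fell by 0.92 on the log2 scale (SE 0.139, adjusted p = 0.00951). All changes given here are differences in log2(FPKM + 1), KLF11 siRNA minus control siRNA, from limma fitted to the 15320 genes with a mean of at least 1 FPKM, with Benjamini-Hochberg adjustment over all of them and a threshold of 0.05. On this scale the change of a low gene is understated. Of all tested genes 13.5% were called higher and 21.7% lower, with a median change of -0.11. The balance of directions depended on scaling, in that the 2071 higher and 3329 lower genes became 2640 higher and 2769 lower with median-of-ratios scaling and 2657 higher and 2664 lower with quantile normalization.

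GPC4, GPC3, SDC2 and SDC1 rose with KLF11 siRNA, GPC1, GPC2 and SDC3 fell, and GPC6 and SDC4 did not pass the test. The remaining gene, GPC5, stayed under the filter. Of the 9 tested genes 7 were called, against 35.2% of all tested genes. The groups did not overlap for 77.8% of the 9, near the 73.4% of all tested genes, so this separation is not a result about the family. The median change of the 9 was 0.11. Of the 16 alternative settings 9 re-estimate the change (both pseudocounts, TPM, both scalings and each library left out), and in those the direction of each called member was the same.

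**Figure D1:**
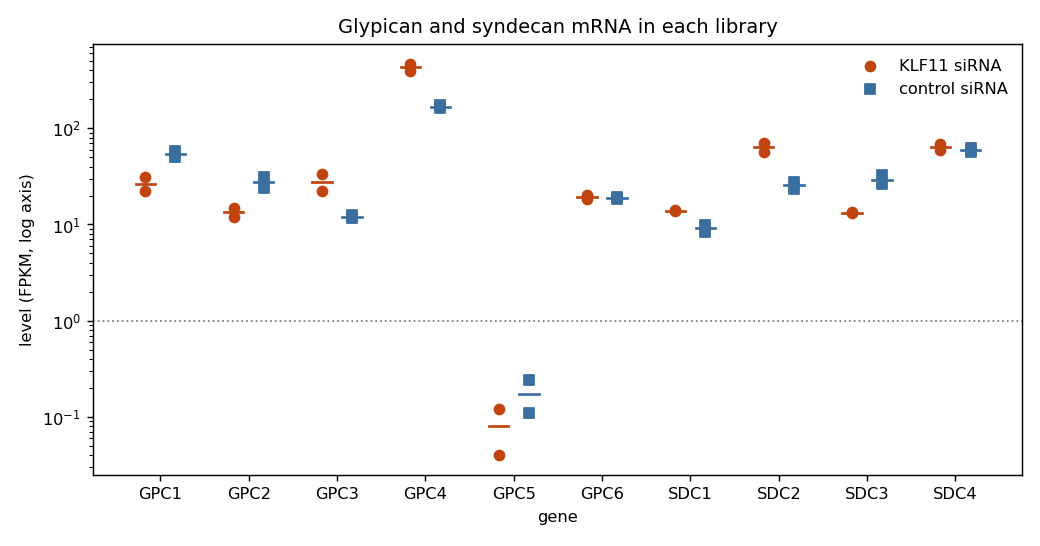
FPKM of each glypican and syndecan on a log axis, with circles for the 2 KLF11 siRNA libraries, squares for the 2 control siRNA libraries, short lines for group means and a dotted line at the filter of 1 FPKM. GPC4 lies above all other members in every library, and the groups separate for GPC1, GPC2, GPC3, GPC4, SDC1, SDC2 and SDC3.

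GPC4 was the most abundant member in both groups. It belongs to the glypican subfamily that also holds GPC1, GPC2 and GPC6, and it is known in rodents as a synapse-organising protein released by astrocytes. Its level was 470 and 395 FPKM in KLF11 siRNA libraries and 172 and 162 FPKM in control siRNA libraries. Both KLF11 siRNA libraries were far above both control libraries, and the mean of 433 ± 53.1 FPKM with KLF11 siRNA was 2.59 times the control mean of 167 ± 7.40 FPKM (SD, n = 2 each). The change of 1.36 (SE 0.113, adjusted p = 0.00327) was close to that of SDC2 (1.28, SE 0.143), and with quantile normalization that of SDC2 was the larger, at 1.35 against 1.26 for GPC4.

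GPC3 is an oncofetal glypican, abundant in fetal liver and in liver cancer, whose loss causes an inherited overgrowth syndrome. It was at 33.4 and 22.1 FPKM in KLF11 siRNA libraries and 11.6 and 12.6 FPKM in control siRNA libraries. The KLF11 siRNA libraries differed by more than the controls did, yet the lower of them was above both controls. The mean was 2.30 times the control mean, with a change of 1.11 (SE 0.203, adjusted p = 0.0149). GPC3 and GPC4 are next to each other on the X chromosome, with no protein-coding gene between them in the RefSeq table (GRCh38.p14). The ratio of GPC4 to GPC3 was 14.1 and 17.8 in KLF11 siRNA libraries and 14.9 and 12.9 in control siRNA libraries, so the groups overlapped in this ratio. On the outer sides of the pair, TFDP3 was listed at 0 in every library and CCDC160 was at 1.44 and 1.94 FPKM in KLF11 siRNA libraries and 2.54 and 2.06 FPKM in control siRNA libraries (change -0.30, adjusted p = 0.294).

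GPC1 is the most widely expressed glypican of adult tissues and a co-receptor for FGFs. It was at 22.2 and 31.1 FPKM in KLF11 siRNA libraries and 57.4 and 50.1 FPKM in control siRNA libraries. The groups did not overlap, and the mean with KLF11 siRNA stood at 0.496 of that in controls (change -1.0, SE 0.177, adjusted p = 0.0137). GPC2, known from the developing nervous system and from neuroblastoma, was at 11.9 and 14.8 FPKM in KLF11 siRNA libraries and 30.9 and 24.0 FPKM in control siRNA libraries. It too was lower in both KLF11 siRNA libraries, by 0.98 on the log2 scale (SE 0.169, adjusted p = 0.013). A nearest neighbour of each also fell, ANKMY1 beside GPC1 (change -0.71, adjusted p = 0.0373) and STAG3 beside GPC2 (change -0.86, adjusted p = 0.0452). Over all members, 16 genes that are not members were nearest protein-coding neighbours. Of the 11 tested 0 were called higher and 3 lower by limma, the last of them LAPTM4A beside SDC1. Of all tested genes 13.5% were called higher and 21.7% lower, so these few calls are not read as a result about the neighbours.

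GPC6, whose loss causes a skeletal dysplasia with short limbs, was at 20.2 and 18.5 FPKM in KLF11 siRNA libraries and 18.4 and 19.4 FPKM in control siRNA libraries. The libraries of the groups overlapped, and the change was 0.03 with a 95% interval of -0.23 to 0.29 (adjusted p = 0.83). That interval leaves out changes of the size seen for GPC4 or GPC1. GPC5, its neighbour on chromosome 13 and the closest relative of GPC3, was at 0.04 and 0.12 FPKM in KLF11 siRNA libraries and 0.24 and 0.11 FPKM in control siRNA libraries, too low to test. The antisense and intronic rows named after GPC5 and GPC6 and the pseudogene SDC4P, 6 rows in all, reached at most 0.26 FPKM.

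Among the syndecans, SDC2 and SDC3 moved in opposite directions. SDC2, the syndecan of mesenchymal cells and fibroblasts, was at 70.3 and 56.9 FPKM in KLF11 siRNA libraries and 27.7 and 23.4 FPKM in control siRNA libraries. Its KLF11 siRNA mean was 2.49 times the control mean, a change of 1.28 (SE 0.143, adjusted p = 0.00522). SDC3, best known from the nervous system, was at 13.1 and 13.4 FPKM in KLF11 siRNA libraries and 32.3 and 26.2 FPKM in control siRNA libraries. With KLF11 siRNA the mean stood at 0.454 of that in controls, a change of -1.08 (SE 0.129, adjusted p = 0.00592), and the KLF11 siRNA libraries lay close together. In the ratio of SDC2 to SDC3 the groups were far apart, at 5.36 and 4.24 in KLF11 siRNA libraries and 0.857 and 0.893 in control siRNA libraries.

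SDC1, the main syndecan of epithelia and plasma cells, was at 14.1 and 13.7 FPKM in KLF11 siRNA libraries and 9.96 and 8.45 FPKM in control siRNA libraries. Its change was the smallest among the called members, 0.55 (SE 0.126, adjusted p = 0.026). All 6 epithelial markers were called lower, against 21.7% of all tested genes, and a link of SDC1 to them was not tested. SDC4, a focal adhesion syndecan found in most tissues, was at 60.0 and 68.4 FPKM in KLF11 siRNA libraries and 62.0 and 56.6 FPKM in control siRNA libraries. The groups overlapped, and the change was 0.11 with a 95% interval of -0.15 to 0.38 (adjusted p = 0.443). SDC4 was the second most abundant member in both groups, next to SDC2 with KLF11 siRNA, where the means of 64.2 ± 5.99 and 63.6 ± 9.48 FPKM (SD, n = 2 each) did not differ beyond their spread.

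**Figure D2:**
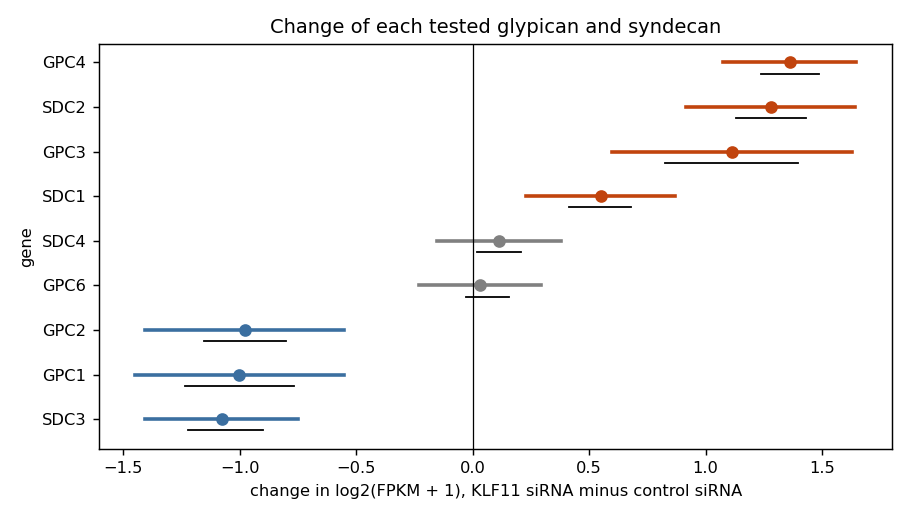
Change in log2(FPKM + 1) of the 9 tested members, KLF11 siRNA minus control siRNA, as points with 95% intervals from limma, and thin black lines for the range of the estimate over the 16 alternative settings. GPC4, SDC2, GPC3 and SDC1 lie above 0 and GPC2, GPC1 and SDC3 below it, while the intervals of SDC4 and GPC6 include 0.

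With 1 control library left out limma called 0 of all tested genes in either direction (4461 without control siRNA replicate 1 and 4793 without replicate 2 had an unadjusted p under 0.05), so the loss of calls there is no measure of these members, and their changes were of similar size. Without control siRNA replicate 1 they ran from 0.66 to 1.41 in the members that rose and from -0.93 to -0.80 in those that fell. Without replicate 2 they ran from 0.44 to 1.32 and from -1.22 to -1.10. Without control siRNA replicate 1 none of the 7 members passed, with adjusted p between 0.0809 and 0.133 and an unadjusted p under 0.05 in limma for 7, and without replicate 2 none passed, with adjusted p between 0.0806 and 0.173 and an unadjusted p under 0.05 for 6. Without KLF11 siRNA replicate 1 the call of SDC1 was lost (change 0.53, adjusted p = 0.0697). An analysis with no filter on low genes also lost GPC1, GPC2, GPC3 and SDC1 (adjusted p from 0.0595 to 0.0715), at unaltered changes.

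The summed glypican level was higher with KLF11 siRNA, and GPC4 made up more of it. The glypicans added up to 558 and 482 FPKM in KLF11 siRNA libraries and 291 and 268 FPKM in control siRNA libraries, 1.86 times as much with KLF11 siRNA by the means. GPC4 made up 84.3% and 82.0% of that sum in KLF11 siRNA libraries and 59.3% and 60.4% in control siRNA libraries. GPC1 made up 3.98% and 6.45% in KLF11 siRNA libraries and 19.7% and 18.7% in control siRNA libraries. The share of GPC4 was thus higher, and that of GPC1 lower, in both KLF11 siRNA libraries.

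The syndecan sum differed less, at 157 and 152 FPKM in KLF11 siRNA libraries and 132 and 115 FPKM in control siRNA libraries. SDC2 gave 44.6% and 37.3% of it in KLF11 siRNA libraries and 21.0% and 20.4% in control siRNA libraries. The share of SDC3 was 8.32% and 8.80% in KLF11 siRNA libraries and 24.5% and 22.9% in control siRNA libraries. SDC4 held 38.1% and 44.9% in KLF11 siRNA libraries and 47.0% and 49.4% in control siRNA libraries. With KLF11 siRNA, SDC2 and SDC4 were thus at similar shares, and in control libraries SDC4 alone led.

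**Figure D3:**
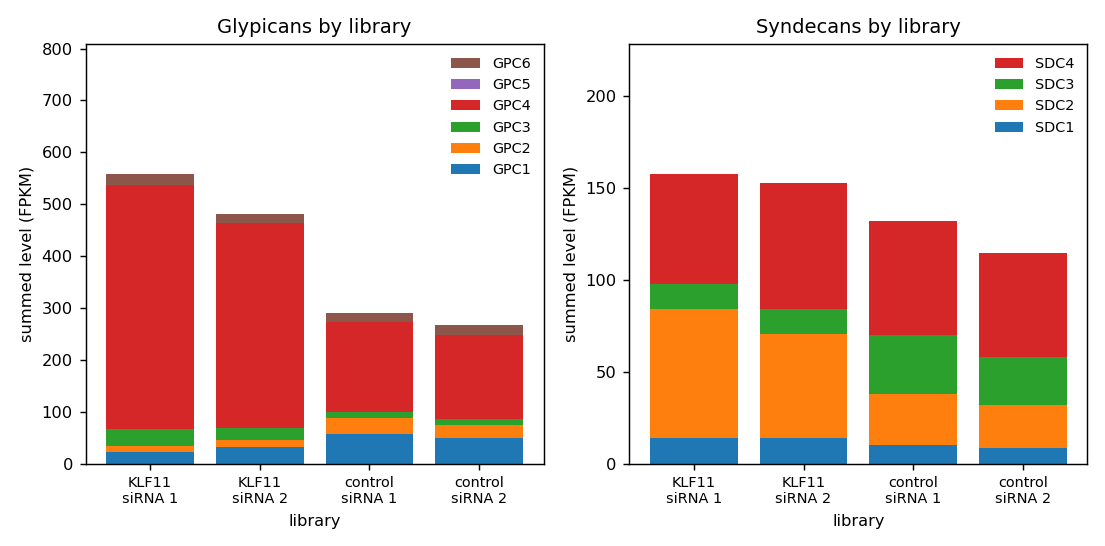
Summed FPKM of the glypicans and of the syndecans in each library, stacked by gene, with the 2 KLF11 siRNA libraries left of the 2 control siRNA libraries. The GPC4 block reaches 470 and 395 FPKM with KLF11 siRNA, against 172 and 162 FPKM in controls, and in the other panel the SDC2 block is taller and the SDC3 block shorter with KLF11 siRNA.

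In order of mean level, the KLF11 siRNA libraries had GPC4, SDC4, SDC2, GPC3, GPC1, GPC6, SDC1, GPC2, SDC3 and GPC5. The control siRNA libraries had GPC4, SDC4, GPC1, SDC3, GPC2, SDC2, GPC6, GPC3, SDC1 and GPC5. Within the KLF11 siRNA group the levels of GPC3 and GPC1 overlapped, and those of GPC2 overlapped with SDC1 and with SDC3. Within the control group SDC4 overlapped with GPC1, and SDC3, GPC2 and SDC2 overlapped with each other. SDC3 ranked 9 with KLF11 siRNA and 4 among controls, and SDC2 ranked 3 with KLF11 siRNA and 6 among controls.

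The 2 KLF11 siRNA libraries did not lie equally far from the controls. For all 7 called members replicate 1 was farther from the control mean on the log2 scale, which was also the case for 79.1% of all called genes and 66.9% of all tested genes. Replicate 1 had the lower KLF11 level, 5.49 against 6.74 FPKM in replicate 2, and the lower sum of early endoderm markers, 1282 against 2989 FPKM. The part of these differences in the members' levels was not tested.

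Upstream sequence is shown for 3 called members, GPC4 and SDC1, which rose, and GPC1, which fell, because KLF and SP factors are known to bind GC-rich boxes near gene starts. Each line gives the 250 bases before the annotated start, 5′ to 3′ on the gene's strand, from RefSeq (GRCh38.p14), at chrX:133415490-133415739 on the minus strand for GPC4, chr2:20225476-20225725 on the minus strand for SDC1 and chr2:240435413-240435662 on the plus strand for GPC1. Capitals mark matches to the GC box GGGCGG on either strand, so that the other strand reads CCGCCC.
GPC4: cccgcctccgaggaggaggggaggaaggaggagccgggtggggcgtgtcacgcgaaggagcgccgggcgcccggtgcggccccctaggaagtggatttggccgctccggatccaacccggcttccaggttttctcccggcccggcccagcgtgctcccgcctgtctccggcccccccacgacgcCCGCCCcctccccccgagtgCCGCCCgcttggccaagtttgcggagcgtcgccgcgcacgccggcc
SDC1: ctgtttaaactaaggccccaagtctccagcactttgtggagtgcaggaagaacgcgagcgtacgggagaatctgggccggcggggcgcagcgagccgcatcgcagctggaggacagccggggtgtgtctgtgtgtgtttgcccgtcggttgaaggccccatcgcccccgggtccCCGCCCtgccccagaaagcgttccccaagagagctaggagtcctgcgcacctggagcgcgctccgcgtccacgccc
GPC1: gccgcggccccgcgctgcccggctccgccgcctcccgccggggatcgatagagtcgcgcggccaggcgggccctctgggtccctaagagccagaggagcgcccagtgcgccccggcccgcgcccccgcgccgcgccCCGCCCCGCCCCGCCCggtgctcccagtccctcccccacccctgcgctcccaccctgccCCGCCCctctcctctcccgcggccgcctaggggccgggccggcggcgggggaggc

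These windows held 2 matches for GPC4, 1 for SDC1 and 4 for GPC1, of which those of GPC1 sit mostly in 1 run of overlapping or adjoining boxes. RefSeq had 9 upstream windows for 8 of the 10 members, with none for GPC3 and SDC2, which both rose. SDC1 has 2 annotated starts, of which the one printed is listed first and the other also held 1 match. A GC box was in 8 of the 9 windows. The share was 42.6% of all 35116 windows and 63.6% of those of tested genes. The G+C content of the windows with a box ran from 62.4% (GPC5) to 84.0% (GPC1), and that of the GPC6 window was 37.6%. The median was 58.0% over all windows and 64.8% over those of tested genes. The part of base composition in the count of GC boxes was not tested. SDC4 and SDC3, with 8 and 5 matches, had the most, and the change of SDC4 did not pass while SDC3 fell. GPC6 had none. Among members with a window, matches were thus found in either direction, though GPC4 and SDC1 were the only such members that rose. The letters GGAATG, the core of the TEAD motif, or CATTCC on the other strand, were in 0 of the 9 windows, against 11.9% of all windows and 9.84% of those of tested genes. TATAAA or TTTATA was in 2, those of GPC5 and GPC6, against 10.7% of all windows and 5.72% of those of tested genes. A match is a description of letters and not a binding site.

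The enzymes that build and edit the chains, and the genes that release, bind or accompany the proteoglycans, were followed in 9 lists with 76 genes. Of 62 tested, 14 were called higher and 16 lower (17 and 13 with median-of-ratios scaling, 16 and 14 with quantile normalization). That is 22.6% higher and 25.8% lower, against 13.5% and 21.7% of all tested genes, with a median change of -0.11, the same as for all tested genes. The lists were chosen with earlier results of these data known, so these shares are not read as enrichment. Some related genes were called in opposite directions, namely HS6ST1 and HS6ST2, PAPSS1 and PAPSS2, and SULF1 and SULF2. These pairs are among the genes with the smallest p of their lists. Other relatives were not so called, such as HS3ST3A1 (change -0.30) and HS3ST3B1 (change -0.48), which both fell without passing. Without control siRNA replicate 1 or 2, where no gene of the whole table was called by limma, all 30 calls were lost, while 0 of the 30 changes moved by over 1.5 times (VEGFA -3.00 and -3.07, MMP2 3.18 and 2.82). With no filter on low genes 12 of the 30 were lost, namely XYLT2, GLCE, HS6ST1, HS6ST2, SULF2, ADAM17, PCSK5, HSPG2, NRP1, SDCBP, GIPC1 and HBEGF.

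**Figure D4:**
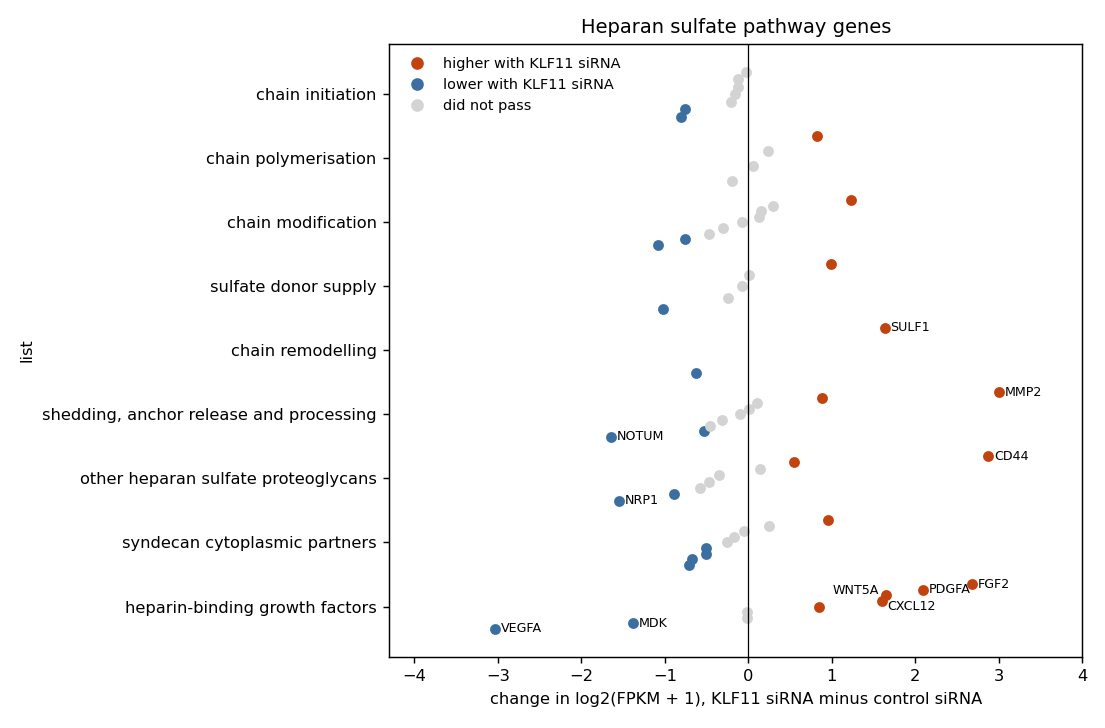
Change in log2(FPKM + 1), KLF11 siRNA minus control siRNA, of the 62 tested pathway genes by list, coloured by call, with symbols at the genes that moved most. Called genes lie on both sides of 0 in 7 of the 9 lists.

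Chain synthesis starts with a linker sugar on the core protein. Of 7 tested genes for this step 0 were higher and 2 (28.6%) lower in limma, against 13.5% and 21.7% of all tested genes. B3GAT3, which adds the last linker sugar, was at 15.8 and 18.5 FPKM in KLF11 siRNA libraries and 30.8 and 28.3 FPKM in control siRNA libraries (change -0.75, adjusted p = 0.0102). XYLT2, which adds the first, was at 6.52 and 11.0 FPKM in KLF11 siRNA libraries and 16.0 and 15.3 FPKM in control siRNA libraries. Its call sat at the threshold (change -0.80, adjusted p = 0.0499) and was lost in several settings that kept every library (adjusted p from 0.0502 with the replicate block to 0.148 with no filter) and without KLF11 siRNA replicate 1 (change -0.46, adjusted p = 0.0519). The other enzymes with the smallest p, B4GALT7 and B3GALT6, did not pass (changes -0.20 and -0.16).

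For chain elongation 1 of 4 tested genes was higher and 0 lower, against 13.5% and 21.7% of all tested genes. EXT1, a subunit of the heparan sulfate polymerase and a tumour suppressor of cartilage-capped bone growths, was at 41.5 and 44.0 FPKM in KLF11 siRNA libraries and 25.3 and 22.1 FPKM in control siRNA libraries. The KLF11 siRNA mean was 1.80 times the control mean (change 0.83, SE 0.105, adjusted p = 0.00655). Its partner EXT2 was at 32.3 and 29.6 FPKM in KLF11 siRNA libraries and 36.6 and 34.5 FPKM in control siRNA libraries (change -0.20, adjusted p = 0.166). EXTL2 (change 0.24) and EXTL3 (change 0.06) did not pass either, although EXTL2 passed with median-of-ratios scaling and with quantile normalization.

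Among the genes that modify the chain 1 of 9 tested was higher (11.1%) and 2 lower (22.2%). These shares are near the 13.5% and 21.7% of all tested genes. The sulfotransferase HS6ST1 was at 32.1 and 42.4 FPKM in KLF11 siRNA libraries and 65.6 and 60.1 FPKM in control siRNA libraries (change -0.75, adjusted p = 0.0184). Its relative HS6ST2, which places sulfate at the same position, was at 4.11 and 3.24 FPKM in KLF11 siRNA libraries and 1.12 and 0.86 FPKM in control siRNA libraries (change 1.23, adjusted p = 0.011). They went opposite ways, and HS6ST1 stayed the more abundant in every library. GLCE, the epimerase that turns glucuronic into iduronic acid, was at 4.24 and 6.28 FPKM in KLF11 siRNA libraries and 11.3 and 12.9 FPKM in control siRNA libraries (change -1.08, adjusted p = 0.0146). NDST1, which starts sulfation, did not pass (change 0.30, adjusted p = 0.101), although it passed with median-of-ratios scaling (change 0.39, adjusted p = 0.0471) and with quantile normalization (change 0.42, adjusted p = 0.0389).

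The sulfate donor PAPS is made by PAPSS1 and PAPSS2, and these too diverged. PAPSS1 was at 34.5 and 34.3 FPKM in KLF11 siRNA libraries and 66.4 and 76.2 FPKM in control siRNA libraries (change -1.03, SE 0.1, adjusted p = 0.00435). PAPSS2, the form whose loss disturbs skeletal growth, was at 14.0 and 13.8 FPKM in KLF11 siRNA libraries and 6.50 and 6.58 FPKM in control siRNA libraries (change 0.99, SE 0.112, adjusted p = 0.00533). PAPSS2 gave 28.9% and 28.8% of their sum in KLF11 siRNA libraries and 8.92% and 7.95% in control siRNA libraries. The PAPS transporters SLC35B2 (change -0.25) and SLC35B3 (change -0.08) did not pass.

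SULF1 and SULF2, secreted enzymes that strip sulfate from finished chains at the cell surface, formed a further such pair. SULF1 was at 9.18 and 11.4 FPKM in KLF11 siRNA libraries and 2.45 and 2.80 FPKM in control siRNA libraries, 3.92 times the control mean (change 1.63, SE 0.163, adjusted p = 0.0045). SULF2 was at 57.5 and 79.8 FPKM in KLF11 siRNA libraries and 104 and 106 FPKM in control siRNA libraries (change -0.62, SE 0.163, adjusted p = 0.0366), which missed the threshold under median-of-ratios scaling (adjusted p = 0.053) and without the variance trend (adjusted p = 0.0654). Without KLF11 siRNA replicate 1 its change was -0.39 (adjusted p = 0.0393). SULF1 gave 13.8% and 12.5% of their sum in KLF11 siRNA libraries and 2.29% and 2.59% in control siRNA libraries, so SULF2 remained the main form. The heparanase gene HPSE was at 0.49 and 0.61 FPKM in KLF11 siRNA libraries and 0.79 and 0.66 FPKM in control siRNA libraries, under the filter.

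Of 9 tested genes that shed, release or process the core proteins, 2 were higher and 2 lower (22.2% each). Among all tested genes 13.5% were higher and 21.7% lower. MMP2, a gelatinase, was at 161 and 91.5 FPKM in KLF11 siRNA libraries and 16.3 and 12.5 FPKM in control siRNA libraries (change 3.0, adjusted p = 0.0041). NOTUM, a secreted lipase first described in Drosophila as acting on glypicans and now known to inactivate Wnts, was at 1.21 and 1.2 FPKM in KLF11 siRNA libraries and 5.34 and 6.50 FPKM in control siRNA libraries (change -1.64, adjusted p = 0.00484). The convertase PCSK5 rose by 0.88 (adjusted p = 0.0158). ADAM17, a sheddase of syndecans, was at 9.99 and 12.2 FPKM in KLF11 siRNA libraries and 16.0 and 16.7 FPKM in control siRNA libraries (change -0.53, adjusted p = 0.0319), which missed the threshold under median-of-ratios (0.052) and quantile (0.0576) scaling, and at 0.0694 once KLF11 siRNA replicate 1 was left out.

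Other proteins that can carry heparan sulfate moved both ways, with 2 of 8 tested higher and 2 lower. That is 25% each, against 13.5% and 21.7% of all tested genes. CD44, a hyaluronan receptor that bears heparan sulfate in some splice forms, was at 26.1 and 15.3 FPKM in KLF11 siRNA libraries and 2.50 and 1.35 FPKM in control siRNA libraries, 10.7 times the control mean (change 2.87, adjusted p = 0.00503). Of the basement membrane proteoglycans COL18A1 was called higher and HSPG2 lower, while AGRN leaned lower without passing (change -0.47, adjusted p = 0.0539 in limma). AGRN was at 58.05 and 72.96 FPKM in KLF11 siRNA libraries and 98.12 and 84.1 FPKM in control siRNA libraries. COL18A1 was at 156 and 146 FPKM in KLF11 siRNA libraries and 108 and 99.0 FPKM in control siRNA libraries (change 0.54, adjusted p = 0.012). HSPG2, which encodes perlecan, was at 11.3 and 15.2 FPKM in KLF11 siRNA libraries and 29.2 and 21.7 FPKM in control siRNA libraries (change -0.89, adjusted p = 0.0246), a call lost without KLF11 siRNA replicate 1 (adjusted p = 0.0737). NRP1, a semaphorin and VEGF receptor, fell by 1.55 on the log2 scale (adjusted p = 0.0298), with 2.61 and 6.97 FPKM in KLF11 siRNA libraries and 14.0 and 15.5 FPKM in control siRNA libraries. Without KLF11 siRNA replicate 1 its change was -0.98 (adjusted p = 0.0154). SRGN, the proteoglycan of blood cell granules, was listed at 0 in every library.

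Of 9 tested proteins that bind the syndecan tail or act on it, 1 was higher (11.1%) and 4 lower (44.4%). Of all tested genes 13.5% were higher and 21.7% lower. TIAM1, an exchange factor for Rac whose PDZ domain binds syndecan tails, was at 16.8 and 16.1 FPKM in KLF11 siRNA libraries and 7.71 and 8.35 FPKM in control siRNA libraries (change 0.95, adjusted p = 0.0057). The scaffold CASK was at 29.4 and 33.6 FPKM in KLF11 siRNA libraries and 51.9 and 52.3 FPKM in control siRNA libraries (change -0.71, adjusted p = 0.0082). SRC, a tyrosine kinase, fell by 0.68 (adjusted p = 0.0083) and GIPC1, a PDZ protein that binds SDC4, by 0.51 (adjusted p = 0.015), both on the log2 scale. The last was SDCBP, named after its values were seen, which encodes syntenin, the PDZ adaptor of all syndecans. It was at 101 and 114 FPKM in KLF11 siRNA libraries and 149 and 157 FPKM in control siRNA libraries (change -0.51, adjusted p = 0.0157).

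Of the growth factors held by heparan sulfate 5 of 9 tested were higher (55.6%) and 2 lower (22.2%), against 13.5% and 21.7% of all tested genes. Their median change was 0.85, the highest of the 9 pathway lists, against -0.11 for all tested genes. This list is a small choice among such factors and was drawn up with earlier results of these data known. Its shares and median are therefore not read as enrichment. FGF2 was at 24.0 and 13.8 FPKM in KLF11 siRNA libraries and 1.82 and 2.18 FPKM in control siRNA libraries (change 2.68, adjusted p = 0.0045), and PDGFA at 44.6 and 31.7 FPKM in KLF11 siRNA libraries and 8.83 and 7.31 FPKM in control siRNA libraries (change 2.09, adjusted p = 0.0037). The others that rose were WNT5A, CXCL12 and HBEGF, named after their values were seen, and the call of HBEGF was lost without KLF11 siRNA replicate 1 (adjusted p = 0.0588). VEGFA fell to 6.09 and 10.1 FPKM in KLF11 siRNA libraries, against 73.7 and 69.8 FPKM in control siRNA libraries (change -3.04, adjusted p = 0.00264). MDK, which encodes midkine, was at 326 and 389 FPKM in KLF11 siRNA libraries and 976 and 887 FPKM in control siRNA libraries (change -1.38, adjusted p = 0.00356), while its relative PTN was at 12.3 and 11.2 FPKM in KLF11 siRNA libraries and 11.7 and 12.0 FPKM in control siRNA libraries, groups that overlapped.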

How the data were processed

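Polyadenylated RNA was sequenced from 4 libraries, 2 per group, and the authors deposited FPKM values per gene with 2 decimals. The submitters' processing notes name Trim Galore 0.5.0, RSEM 1.3.1 and the build hg19 (GRCh37). Not given in the sources used here were the aligner, the annotation release and the strand setting. FPKM holds no counts, so the depth of each library is unknown and limits on low values cannot be set from it. RSEM shares reads among transcripts they match.

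Groups and columns were taken from the sample titles, leaving 0 columns unmatched. Genes with a mean of at least 1 FPKM entered a limma 3.58.1 fit (R 4.3.3, eBayes with a trend; statmod 1.5.0 for the robust alternative) on log2(FPKM + 1), without a block. With 2 libraries per group the smallest two-sided p of an exact permutation test is 0.333, so none was run. Replicates had the same value for no more than 0.548% of tested genes, and no libraries were counted as 1 sample.

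The members and lists were chosen with earlier results of these data known. Genes named by rule were the members, KLF11, up to 4 tested genes with the smallest p of each pathway list and the nearest protein-coding neighbours of each member. Pathway genes named outside this rule, with their values known, were HPSE, SRGN, PTN, AGRN, HS3ST3A1, HS3ST3B1, SDCBP, WNT5A, CXCL12 and HBEGF. Marker lists are given by sums, with genes at 0 or low named and some others named after their values were seen. All 10 member identifiers matched the Ensembl name table. Because the reference is of another build, coordinates are given for RefSeq upstream windows alone. Motifs were matched by exact letters. Figures were drawn with matplotlib 3.10.9.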

Additional observations from a re-analysis of the deposited data

How the results depend on the processing

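The alternatives were pseudocounts of 0.1 and 5, no filter, a filter at 5 FPKM, TPM, median-of-ratios and quantile scaling, eBayes without a trend or robust, the replicate block, each library left out, an adjusted p of 0.1 and a minimum change of 1. The called members kept their direction in the 9 of these 16 that re-estimate the change, and 21 of their 112 estimates over all 16 lost the call, 14 of them without a control library. With no filter, 2 members were called higher and 1 lower, 11 pathway genes higher and 7 lower, and 887 and 1251 of all genes higher and lower. With a minimum change of 1, 8 pathway genes were higher and 6 lower, against 716 and 1265 of all genes. With 1 library left out, members called higher ran from 0 to 4 and lower from 0 to 3, pathway genes from 0 to 14 and from 0 to 19, and all genes from 0 to 2291 and from 0 to 3813. The counts of 0 came from limma without control siRNA replicate 1 or 2, where 4461 and 4793 of all genes had an unadjusted p under 0.05. The lone control is then assumed to vary like the KLF11 siRNA pair. Quantile normalization moved the median change of all genes to 0.01, against -0.11 as deposited. Same-numbered deviations correlated at -0.0711 across genes, which cannot show whether same-numbered libraries were made together. With the replicate block 4 members were higher and 3 lower, as without it, 14 and 15 pathway genes, and 1707 and 2644 of all genes, against 2071 and 3329. No read depth can be had from FPKM, so low genes such as GPC5 cannot be given a limit.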
